A study of Homo sapiens with 12 samples.

Results

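The measurement described here is the difference between 2 knockdown effects, namely the change of each mRNA upon depletion of the RNA-binding protein IGF2BP1 in Hep-G2 cells minus its change in BE(2)-C cells. Hep-G2 was derived from a human liver tumour and BE(2)-C from a human neuroblastoma. Cells of each line were transfected with control siRNA (siC) or with a pool of siRNAs against IGF2BP1 (siI1) and harvested 72 h later, and 3 poly-A RNA libraries were sequenced for each siRNA and line, 12 in all. A higher siRNA concentration was used in BE(2)-C and the culture media differed, so that cell line, concentration and medium cannot be told apart as the origin of a difference. Members were the protein-coding genes, joined by Ensembl identifier, with a listed length of at least 500 nt and a mean FPKM (fragments scaled by gene length and sequencing depth) of at least 1 in both lines. This held for 8690 genes, out of 19799 protein-coding genes and 58174 genes of any type listed in both tables. The methods call the libraries of a group biological replicates, while the labels do not say whether they came from separate cultures. The p-values then measure the spread between these libraries, which may be technical.

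IGF2BP1 is an oncofetal protein, abundant in embryonic tissue, scarce in most adult tissues and made again in many tumours. It binds mRNAs through KH and RRM domains and is known for shielding its target mRNAs from decay, including decay guided by microRNAs. It has been linked to proliferation and invasion in liver cancer and to poor outcome in neuroblastoma. An mRNA may change after its depletion because it is bound directly or because a regulator upstream of it is, and steady-state RNA levels do not separate these. In bulk libraries, fewer cells that make an mRNA and less of it per cell cannot be told apart either.

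The libraries held from 12852988 to 15721210 reads on genes. The lines carried the markers of their labels. All 10 liver markers had a mean FPKM of at least 1 in Hep-G2, and none of them in BE(2)-C. The summed FPKM of the liver markers in Hep-G2 was 7870, 7830 and 7800 with siC, then 12900, 14500 and 14700 with siI1, with albumin (ALB) the most abundant. The mean of ALB went from 3160 to 6080 and that of APOA1 from 1250 to 4110, whereas those of AFP (1560 to 1040), APOB (562 to 421) and TTR (107 to 63.5) were lower with siI1. All 12 neuroblastoma markers had a mean FPKM of at least 1 in BE(2)-C, led by MYCN, and none in Hep-G2. Their sum in BE(2)-C came to 3950, 3730 and 3750 under siC, against 4120, 4010 and 4090 under siI1, with the mean of MYCN going from 1660 to 1900 but that of HAND2 from 285 to 171. Of markers of other cell types, the 5 fibroblast genes summed to 11.2, 10.7 and 11.6 with siC and 21.1, 22 and 20.7 with siI1 in BE(2)-C. Most of this came from LUM and DCN, while PDGFRA, a defining fibroblast receptor, had a mean of 0.0677 with siC and 0.403 with siI1. The 4 leukocyte and 3 endothelial markers summed to at most 1 FPKM in any library. The 3 epithelial markers, chiefly KRT8 and KRT18, summed to 626, 716 and 672 with siC and 454, 555 and 564 with siI1 in Hep-G2, where EPCAM rather went from 63.3 to 105, and to less than 1 in BE(2)-C. The part of these markers in the changes below was not tested.

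A pair of libraries stood apart. Replicate 1 of siI1 in Hep-G2 deviated most from its group, with an SD of 0.175 (log2) over the members against 0.0846 to 0.12 in the others. In that library, the deviation from the group mean rose with gene length, with a Spearman's rho of 0.51 across genes, which are not independent replicates. The other Hep-G2 libraries had 0.36, -0.42 and 0.17 with siC, then -0.43 and -0.41 for replicates 2 and 3 of siI1, and those of BE(2)-C lay between -0.23 and 0.33. Replicate 3 of siC in BE(2)-C had an FPKM of 6860 for RN7SL2, an RNA without a poly-A tail, against 376 and 574 in the other siC libraries and 4750, 4690 and 3860 with siI1. The share of such RNA therefore moved with the siRNA in BE(2)-C apart from this library. Effects followed gene length in opposite directions, with a Spearman's rho across genes of -0.23 in Hep-G2, 0.22 in BE(2)-C and -0.34 for their difference. Without the first library these values were -0.29, 0.22 and -0.38, and without the second they were -0.23, 0.25 and -0.35. Counts are given below with and without both libraries, and after subtraction of the length trend, alternatives that were chosen after the data were seen.

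IGF2BP1 (ENSG00000159217), on chromosome 17 from 48996558 to 49056145 in the GRCh38.p14 annotation of RefSeq, was depleted alike in both lines. In Hep-G2, its FPKM was 48.5, 46.6 and 50.8 with siC, then 12.6, 10.7 and 10.7 with siI1. IGF2BP1 in BE(2)-C had 21.3, 20.6 and 21.6 with siC, then 4.85, 4.75 and 4.87 with siI1. Each siI1 library lay below each siC library, at 0.234 and 0.231 times the control level. The log2 fold change was -2.1 (SE 0.08, adjusted p = 7.8e-06) in Hep-G2, beside -2.11 (SE 0.05, adjusted p = 1.5e-05) in BE(2)-C. The effects differed by 0.02 (SE 0.09), with an adjusted p of 0.91 and a 95% interval from -0.19 to 0.22. After subtraction of the length trend, the difference was 0.25 and was called.

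The knockdown moved more genes, and moved them further, in Hep-G2 than in BE(2)-C. Fold changes were taken on log2(FPKM + 0.1), on which changes of weakly expressed genes come out too small, and tested with limma. A gene is called here when its p-value, adjusted over the genes of all types that were fitted, lies below 0.05. In Hep-G2, 3047 members (35.1%) were lower and 2129 (24.5%) higher with siI1, against 23.0% lower and 21.9% higher among 19436 genes fitted. The BE(2)-C libraries gave 2098 lower (24.1%) and 1362 higher (15.7%) members, with 14.8% and 13.3% among 18656 genes fitted. The median absolute log2 fold change of the members was 0.359 in Hep-G2, beside 0.209 in BE(2)-C. The effects of the lines were weakly related, with 0.199 for Pearson's r and 0.158 for Spearman's rho across the 8690 genes. The difference itself was called for 4766 members, 54.8% of them, against 40.2% of the 15362 genes fitted in both lines. It was negative, that is lower in Hep-G2 relative to BE(2)-C, for 2678 and positive for 2088. An absolute difference of at least 1 (log2) was reached by 921 called members and one of at least 2 by 78.

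Members called in both lines fall into 4 classes. There were 934 members lower in both, 10.7% against 6.60% of the genes fitted, and 474 higher in both, 5.45% against 4.34%. A further 433 were higher in Hep-G2 but lower in BE(2)-C, 4.98% against 3.31%, and 327 were lower in Hep-G2 but higher in BE(2)-C, 3.76% against 2.51%. Thus 1408 members moved alike and 760 oppositely, while 3008 were called in Hep-G2 alone, 1292 in BE(2)-C alone and 2222 in neither. For all 760 opposite members, the difference between the lines was also called, which called effects of opposite sign nearly ensure by themselves. Of the alike members, 430 of those lower and 178 of those higher in both differed in size between the lines. For 2502 members, 28.8% against 17.1% of the genes fitted, the 95% interval of the difference lay within 0.5 (log2) on either side of 0, and 638 of these moved alike. The filter on the mean over both siRNAs favours changes of weak genes. It favours rises where only siI1 reached 1 FPKM, as for ARRDC4, MMP11, NRTN, CD14 and HTR3B in Hep-G2. The same holds for MMP11, TTC30A, IQCK, AKR1C1, PON2 and BOK in BE(2)-C. Falls are favoured where only siC reached it, as for RIN1, B4GALNT1, MBOAT4, E2F2, CPNE8, ZC3HAV1L and EGR1 in Hep-G2. Such genes in BE(2)-C included RIN1, NRTN, CD14, NPC2, CDKN1A and WNT11. A member that was not called in both is not shown to be without change, since weak effects at few reads escape the test.

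Without both libraries that stood apart, the classes held 777, 384, 504 and 408 members in the same order, and 1096 of the alike and 610 of the opposite members kept their class. With the length trend subtracted they held 1019, 538, 415 and 285, and 1251 and 589 members kept theirs. No member passed from opposite to alike or back in these or any other setting run, which would take called effects of both signs in the same line. Leaving out replicate 2 or replicate 3 of siI1 in BE(2)-C lowered the number of members higher in that line from 1362 to 847 or 831, and the total called there to 2304 without replicate 3. The class lower in Hep-G2 but higher in BE(2)-C fell to 212 without replicate 1, and to 184 without replicate 2 or without replicate 3, of siI1 in BE(2)-C. The class of the other opposite direction fell to 284 without replicate 2. Scaling the libraries to equal sums of FPKM shifted the median effect by -0.17 in Hep-G2, 0.02 in BE(2)-C and -0.18 in the difference. Under that scaling, 26.9% of the members called in Hep-G2 were higher in place of 41.1%, and 28.6% of the called differences were positive in place of 43.8%. Centring on the median gave 51.4% higher members in Hep-G2. Effects below are relative to the deposited scale.

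**Figure D1:**
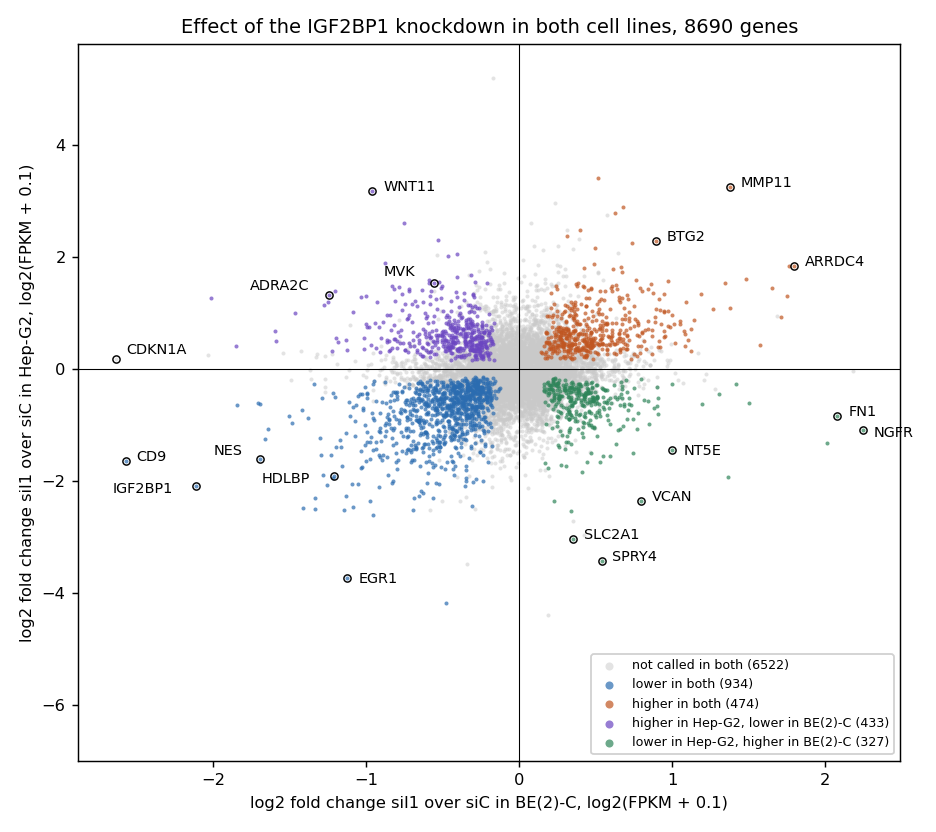
Log2 fold change of siI1 over siC in BE(2)-C (x axis) and Hep-G2 (y axis) on log2(FPKM + 0.1) for 8690 genes, 1 point per gene, coloured by class. The 934 genes lower in both and the 474 higher in both lie in the lower left and upper right quadrants, and the 760 opposite ones in the other quadrants, with IGF2BP1 at -2.11 and -2.1.

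Among the genes lower in both lines with separated libraries, after IGF2BP1 itself, the surface protein CD9 and the intermediate filament nestin (NES) had the largest joint decreases. The FPKM of CD9, a tetraspanin, was 12.9, 12.4 and 12.8 with siC, then 4.26, 3.75 and 3.99 with siI1 in Hep-G2. CD9 in BE(2)-C had 47.5, 45.4 and 42.9 with siC, then 7.79, 6.86 and 7.97 with siI1. CD9 thus dropped to 0.320 times its control level in Hep-G2 and further, to 0.168 times, in BE(2)-C, with no overlap between groups. Its log2 fold changes were -1.64 (SE 0.07, adjusted p = 1.1e-05) and -2.57 (SE 0.07, adjusted p = 1.9e-05), and they differed by 0.93 (SE 0.10, adjusted p = 2.8e-05). NES, a filament protein of neural progenitors, had an FPKM of 46.8, 51.8 and 50.5 with siC, then 14.8, 16.6 and 17.6 with siI1 in Hep-G2. NES in BE(2)-C had 41.3, 39.8 and 39.8 with siC, then 12.8, 12.3 and 12.1 with siI1. Here the lines were close, with fold changes (log2) of -1.60 and -1.69 and a difference of 0.09 (SE 0.09, adjusted p = 0.47). The Polycomb reader CBX6 fell by 2.50 on the log2 scale in Hep-G2, from 7.38 ± 0.120 to 1.23 ± 0.169 (mean ± SD, n = 3), and by 1.33 in BE(2)-C, from 41.5 ± 1.51 to 16.4 ± 0.279. The difference for CBX6 was -1.17 (SE 0.12, adjusted p = 1.7e-05). RIN1, a RAS effector, TMEM41A and the ganglioside synthase B4GALNT1 fell by 2.31, 1.54 and 1.90 in Hep-G2, against 1.33, 1.29 and 1.28 in BE(2)-C. MT2A, a metallothionein, fell by 2.48 and 1.42, but it shares sequence with other metallothioneins and its value is uncertain. In this class 696 of 934 genes had the larger absolute effect in Hep-G2, with median log2 fold changes of -0.67 there and -0.44 in BE(2)-C.

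HDLBP, AURKA, YWHAZ and E2F1, which the study followed further, were all lower in both lines. The study counts them among genes lower in all its knockdown experiments, which include these libraries. Their direction here was therefore given by that choice and is no separate evidence. HDLBP encodes vigilin, an RNA-binding protein with many KH domains. Its FPKM was 78.8, 77.7 and 80.4 with siC, then 21.1, 21.2 and 20.3 with siI1 in Hep-G2. HDLBP in BE(2)-C had 53.3, 50.6 and 52.6 with siC, then 23.1, 22.4 and 22.0 with siI1. HDLBP libraries of siI1 lay far below those of siC in both lines, with fold changes (log2) of -1.92 (SE 0.05, adjusted p = 2.2e-06) and -1.21 (SE 0.04, adjusted p = 3.3e-05). The fall was larger in Hep-G2, with a difference of -0.71 (SE 0.06, adjusted p = 4.6e-06). The 14-3-3 protein YWHAZ showed the same order, with -1.45 and -0.56 and a difference of -0.88 (SE 0.06, adjusted p = 1.8e-06), and so did the mitotic kinase AURKA with -0.91 and -0.54 (difference -0.37 (SE 0.08, adjusted p = 0.0032)). E2F1, a transcription factor of S phase genes, had an FPKM of 17.2, 18.1 and 16.6 with siC, then 8.92, 11.3 and 11 with siI1 in Hep-G2. The values in BE(2)-C were 96.4, 85.0 and 83.5 with siC, then 51.0, 53.5 and 52.3 with siI1. E2F1 fell by nearly the same factor in both, with fold changes (log2) of -0.74 and -0.75 and a difference of 0.02 (SE 0.12, adjusted p = 0.93).

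The genes higher in both lines were led by ARRDC4, an arrestin-like protein known from the response to glucose, HHLA3 and RHOBTB1. The FPKM of RHOBTB1 was 17.9, 17.6 and 17.5 with siC, then 59.2, 52.4 and 49.7 with siI1 in Hep-G2. RHOBTB1 in BE(2)-C had 2.1, 2.01 and 2.08 with siC, then 5.56, 5.68 and 6.71 with siI1. Levels with siI1 were 3.03 and 2.80 times those with siC, and the log2 fold changes of 1.60 (SE 0.07, adjusted p = 1.3e-05) and 1.49 (SE 0.09, adjusted p = 2.0e-04) differed by 0.11 (SE 0.11, adjusted p = 0.46). ARRDC4 rose from 0.557 ± 0.116 to 2.22 ± 0.284 (mean ± SD, n = 3) in Hep-G2 and from 5.17 ± 0.892 to 18.1 ± 1.65 in BE(2)-C. Its log2 fold changes were 1.83 and 1.79, and their difference of 0.04 turned to -0.58 (adjusted p = 0.0114) with a pseudocount of 1. ARRDC4 had as few as 27 reads in a library, and the cause of this turn was not tested. MMP11, a secreted metalloproteinase, and the procollagen protease ADAMTS2 rose as well. MMP11 had 0.411, 0.439 and 0.472 with siC, then 4.51, 5.93 and 4.78 with siI1 in Hep-G2. Its values in BE(2)-C were 0.498, 0.663 and 0.718 with siC, then 1.75, 1.61 and 1.96 with siI1. The rise of MMP11 was larger in Hep-G2, with 3.25 against 1.38 and a difference of 1.88 (SE 0.22, adjusted p = 6.8e-05). ADAMTS2 rose by 1.30 and 1.75, and its difference of -0.44 (SE 0.13, adjusted p = 0.018) was -0.22 (adjusted p = 0.279) with the length trend subtracted. HHLA3, the ciliary transport protein TTC30A and IQCK had fold changes (log2) of 1.83, 1.44 and 1.54 in Hep-G2, against 1.76, 1.65 and 1.35 in BE(2)-C. In this class 324 of 474 genes had the larger effect in Hep-G2, with medians of 0.60 and 0.44.

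**Figure D2:**
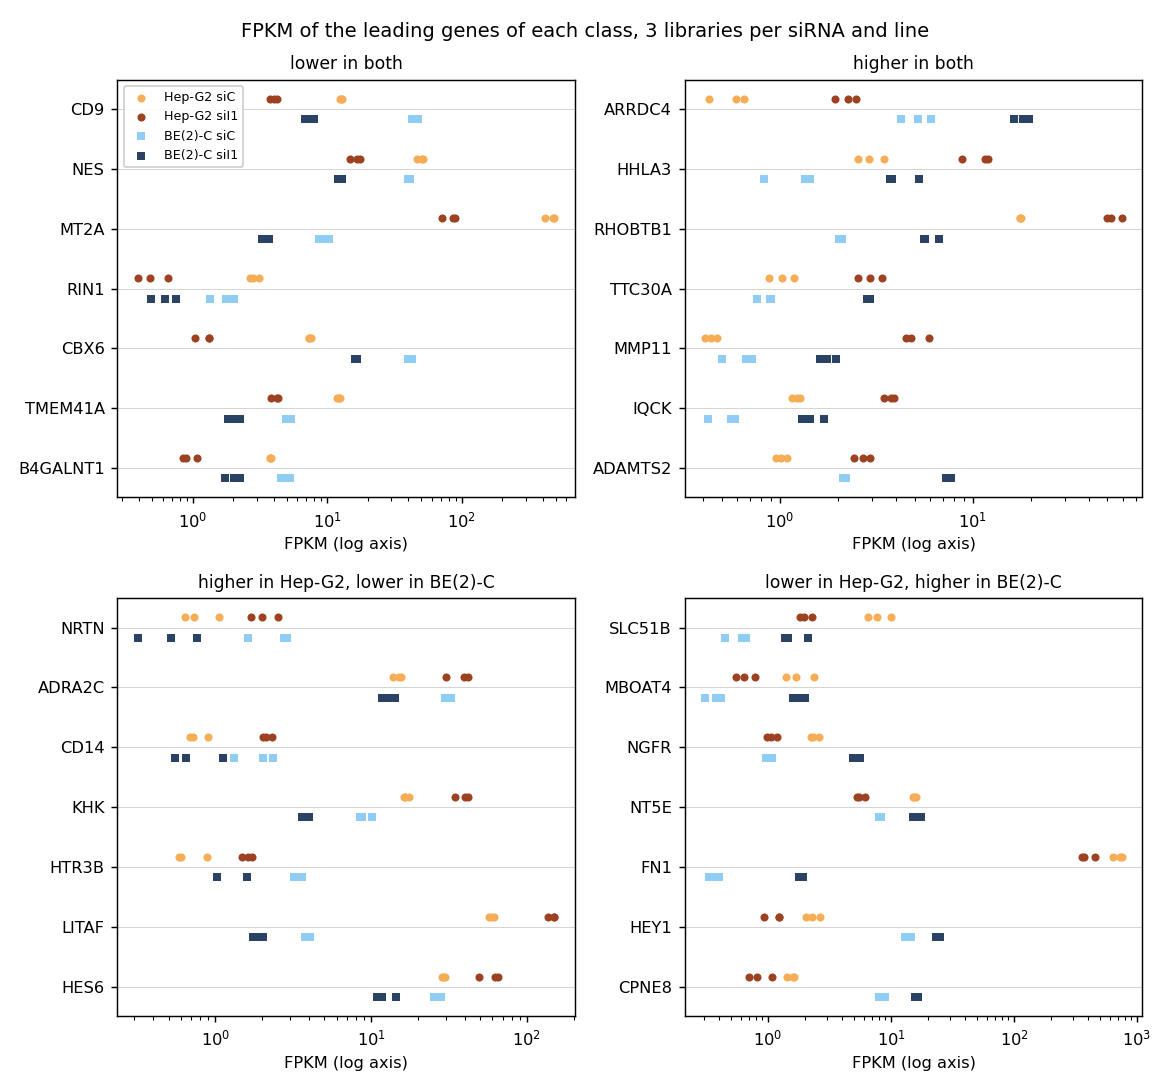
FPKM (log axis) of the 7 leading genes of each class in the 3 siC and 3 siI1 libraries of Hep-G2 (circles) and BE(2)-C (squares), 1 point per library. For each of the genes, the siI1 libraries lie beyond the siC libraries in both lines, as the choice of these genes required, for instance CD9 with 12.9, 12.4 and 12.8 against 4.26, 3.75 and 3.99 in Hep-G2.

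The genes higher in Hep-G2 but lower in BE(2)-C comprised the fructose kinase KHK, the adrenergic receptor ADRA2C, the endosomal protein LITAF and the transcriptional repressor HES6. The FPKM of KHK, which opens fructose breakdown in liver, was 16.5, 17.5 and 16.3 with siC, then 34.3, 40.3 and 41.8 with siI1 in Hep-G2. KHK in BE(2)-C had 10.2, 8.46 and 8.76 with siC, then 4.02, 3.72 and 3.58 with siI1. It more than doubled in the liver line and fell below the controls in the neuroblastoma line, with 1.20 (SE 0.08, adjusted p = 6.1e-05) and -1.25 (SE 0.09, adjusted p = 2.7e-04) and a difference of 2.45 (SE 0.12, adjusted p = 2.2e-07). ADRA2C had an FPKM of 13.8, 15.5 and 15.1 with siC, then 30.1, 39.6 and 42.0 with siI1 in Hep-G2. The BE(2)-C values were 32.5, 29.7 and 30.1 with siC, then 11.7, 12.9 and 14.3 with siI1. The receptor mRNA more than doubled in Hep-G2 and was more than halved in BE(2)-C, by 1.31 and -1.24, with a difference of 2.55 (SE 0.16, adjusted p = 9.3e-07). LITAF rose from 59.3 ± 1.81 to 145 ± 8.13 (mean ± SD, n = 3) in Hep-G2 and fell from 3.89 ± 0.165 to 1.85 ± 0.139 in BE(2)-C, a difference of 2.32 (SE 0.09, adjusted p = 2.9e-08). HES6, a relative of the Notch effectors that favours neuronal differentiation, had log2 fold changes of 1.01 and -1.09. The neurotrophic ligand NRTN and the serotonin receptor subunit HTR3B, both on few reads, had differences of 3.28 (SE 0.42, adjusted p = 1.2e-04) and 2.41 (SE 0.26, adjusted p = 3.6e-05), with as few as 5 and 19 reads in a library. CD14, a receptor for bacterial lipopolysaccharide, differed by 2.59 (SE 0.35, adjusted p = 1.7e-04). Its decrease of -1.20 in BE(2)-C (adjusted p = 0.024) was no longer called without replicate 1 or 3 of siC (-1.04 and -1.14) or without replicate 1 or 3 of siI1 (-1.02 and -1.12), with adjusted p-values up to 0.0719. Median log2 fold changes of the class were 0.56 in Hep-G2, beside -0.41 in BE(2)-C.

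The genes lower in Hep-G2 but higher in BE(2)-C comprised the matrix protein fibronectin (FN1), the neurotrophin receptor NGFR, the ectonucleotidase NT5E and the Notch effector HEY1. The FPKM of NGFR was 2.33, 2.62 and 2.24 with siC, then 0.980, 1.06 and 1.19 with siI1 in Hep-G2. NGFR in BE(2)-C had 1.07, 0.996 and 0.965 with siC, then 4.94, 5.56 and 5.03 with siI1. NGFR was more than halved in the liver line and rose 4.74 times in the neuroblastoma line, with -1.08 (SE 0.13, adjusted p = 7.8e-04) and 2.25 (SE 0.10, adjusted p = 8.5e-05) and a difference of -3.33 (SE 0.15, adjusted p = 9.5e-08). NT5E, also known as CD73, had 16.1, 15.0 and 15.5 with siC, then 5.51, 5.30 and 6.11 with siI1 in Hep-G2. Its BE(2)-C values were 8.31, 7.99 and 8.31 with siC, then 17, 15.2 and 17.4 with siI1. The groups did not overlap in either line, and the difference was -2.45 (SE 0.10, adjusted p = 3.1e-08). FN1 was an abundant mRNA of Hep-G2, with 749.6, 642 and 729 with siC, then 451, 359 and 372 with siI1. In BE(2)-C it was scarce, with 0.330, 0.365 and 0.397 with siC, then 1.93, 1.88 and 1.77 with siI1, beside the rise of the summed fibroblast markers given above. The difference for FN1 was -2.93 (SE 0.13, adjusted p = 6.5e-08), from -0.85 and 2.08. HEY1 and the copine CPNE8 fell by 0.98 and 0.80 in Hep-G2 and rose by 0.85 and 0.91 in BE(2)-C. CPNE8 reached a mean of 1 FPKM in Hep-G2 only with siC (1.549, against 0.858 with siI1), which favours a fall. The bile acid transporter subunit SLC51B and MBOAT4, the acyltransferase of ghrelin, differed by -3.29 (SE 0.28, adjusted p = 6.9e-06) and -3.34 (SE 0.29, adjusted p = 7.1e-06), both with as few as 6 reads in a library. With siC in BE(2)-C, the means of FN1, SLC51B and MBOAT4 (0.364, 0.572 and 0.368) lay below 1, so these genes are members only through siI1 (1.86, 1.64 and 1.79), which favours a rise. Medians of the class were -0.54 in Hep-G2, beside 0.39 in BE(2)-C.

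Some genes moved in 1 line while the 95% interval of the other lay within 0.3 (log2) of 0. In Hep-G2, the ETS-type repressor ELK3 had an FPKM of 15.8, 13.7 and 15.6 with siC, then 3.91, 3.32 and 2.94 with siI1. ELK3 in BE(2)-C had 9.67, 10.1 and 11.3 with siC, then 10.4, 10.2 and 11.8 with siI1. The ELK3 mRNA thus fell in the liver line by 2.12 and stayed near its control level in the other, a difference of -2.18 (SE 0.15, adjusted p = 1.6e-06). The amino acid transporter SLC38A1 fell by 1.68 in Hep-G2 (difference -1.85 (SE 0.11, adjusted p = 6.1e-07)). Its 0.17 in BE(2)-C passed the test (adjusted p = 0.04) but not without replicate 1 or 2 of siC (0.13 and 0.18) or replicate 1, 2 or 3 of siI1 (0.18, 0.17 and 0.16), with adjusted p-values from 0.0598 to 0.131, and it was 0.10 with the length trend subtracted (adjusted p = 0.117). ZC3HAV1L fell by 1.90 in Hep-G2, and without replicate 3 of siC this was -1.77 with an adjusted p of 0.0514. Upward in Hep-G2 were the histone methyltransferase KMT5C (1.71) and TMEM141 (1.43), against -0.10 and -0.14 in BE(2)-C. For BE(2)-C, the actin-binding proteins TAGLN2 and CNN2 and the sorting nexin SNX7 were lower. The FPKM of TAGLN2 was 17.6, 21.6 and 19.1 with siC, then 17.3, 19.1 and 20.9 with siI1 in Hep-G2. TAGLN2 in BE(2)-C had 128, 111 and 116 with siC, then 47.8, 45.9 and 43.5 with siI1. Every siI1 library of BE(2)-C was far below its controls, whereas the Hep-G2 values overlapped, and the difference was 1.34 (SE 0.13, adjusted p = 1.2e-05). Higher in BE(2)-C were AKR1C1, an aldo-keto reductase, with 2.18 against -0.04 in Hep-G2, the actin-binding C15orf52 (1.22 against -0.08) and the paraoxonase PON2 (0.90 against -0.16).

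Further properties of the classes are described without a test. The median gene length was 5056 nt over all members, 4862 in those lower in both and 4825 in those higher in both. It was 3549 nt for genes higher in Hep-G2 but lower in BE(2)-C, and 6673 nt for the reverse class, beside the length relations given above. Median control FPKM over all members was 8.89 in Hep-G2, beside 7.84 in BE(2)-C, and 13.1 and 13.4 for genes lower in both. Genes higher in both had 7.71 and 7.22. Those higher in Hep-G2 but lower in BE(2)-C had 13.6 and 15.3, and the reverse class 10.1 and 6.45. Chromosome 16 held 11.1% of the genes higher in Hep-G2 but lower in BE(2)-C and 1.83% of the reverse class, against 5.2% of all members. Promoters of 300 bases (250 before to 50 after the start) were matched in RefSeq for 7249 of 8690 members. The letters CCAAT, on either strand, were in 38.3% of the members' promoters and 34.6% of all 35116 promoters of the reference. In the class higher in Hep-G2 but lower in BE(2)-C the share was 46.3%, in the reverse class 35.7%, and in the classes lower and higher in both 41.3% and 41.2%. TTTGAA, the cell cycle gene homology region (CHR), was in 9.04% of the members' promoters, 15.2% of all promoters, 4.21% and 7.06% of the opposite classes in this order, and 9.96% and 7.22% of those lower and higher in both. Such matches are letters in a window and no measured binding.

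Gene groups by function are described next, with the number of members called in each direction and their median log2 fold change. Over all 8690 members the medians were -0.09 in Hep-G2, -0.04 in BE(2)-C and -0.06 for the difference. Counts below stand beside 35.1% lower and 24.5% higher members in Hep-G2, against 24.1% and 15.7% in BE(2)-C, and 16.2% alike and 8.75% opposite. Counts of called differences stand beside 54.8% of all members. Up to 4 genes per group were chosen by a rule of effect size, and other genes are named after their values were seen. Without both libraries that stood apart, the Hep-G2 medians of 3 groups moved by more than 0.1, namely ribosomal proteins from 0.51 to 0.65, the ERK group from -0.25 to -0.41 and integrins with cadherins from -0.31 to -0.19. The BE(2)-C median of the immediate early genes moved from -0.49 to -0.38.

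Cholesterol synthesis genes showed the clearest split between the lines. The pathway builds sterols from acetyl units through mevalonate, is switched on by SREBP2 when membrane sterol is low, and is most active in liver. Of 28 members, 20 were higher and 4 lower in Hep-G2, while 21 were lower with 0 higher in BE(2)-C. The medians were 0.66 and -0.38, with 1.06 for the difference, which lay between 0.87 and 1.11 under the other scalings. A group of 15 genes was higher in Hep-G2 but lower in BE(2)-C, 53.6% of the list against 4.98% of all members. The FPKM of MVK, the mevalonate kinase, was 9.28, 10.8 and 9.23 with siC, then 26.5, 28.9 and 29.1 with siI1 in Hep-G2. MVK in BE(2)-C had 9.17, 8.28 and 9.03 with siC, then 6.20, 5.96 and 5.77 with siI1. MVK rose 2.87 times in Hep-G2 and fell to 0.681 times in BE(2)-C, with 1.52 (SE 0.08, adjusted p = 2.0e-05) and -0.55 (SE 0.06, adjusted p = 0.0013) and a difference of 2.08 (SE 0.10, adjusted p = 1.5e-07). Its neighbours in the pathway moved alongside, as MVD had 1.55 and -0.53, LSS 1.34 and -0.30, FDPS 0.91 and -0.61 and the last enzyme DHCR7 0.37 and -0.63. The regulator SREBF2 rose by 1.04 in Hep-G2 (adjusted p = 1.6e-05) and had -0.17 in BE(2)-C (adjusted p = 0.11), and SREBF1 had -0.21 (adjusted p = 0.066) and -0.95 (adjusted p = 1.6e-04).

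Not all genes of the cholesterol group moved oppositely. SC5D and LBR, a desaturase and a sterol reductase of the late pathway, were lower in both, with -0.63 and -0.42 in Hep-G2, against -0.74 and -0.60 in BE(2)-C. NPC2, which carries cholesterol out of lysosomes, had a difference as large as that of MVK, 2.08 (SE 0.30, adjusted p = 2.6e-04). Its rise in Hep-G2, 0.49 (SE 0.14, adjusted p = 0.025), was no longer called without replicate 1 or 3 of siC (0.41 and 0.48) or replicate 2 or 3 of siI1 (0.44 and 0.41), with adjusted p-values up to 0.0798. The promoters of 4 of the opposite genes are shown because these genes moved together, up to the start of transcription in GRCh38.p14 from RefSeq, with CCAAT on either strand and the E2F letters TTTNNCGC on either strand in capitals. FDPS is at chr1:155308616-155308865 (plus strand), MVK at chr12:109573544-109573793 (plus strand), MVD at chr16:88663092-88663341 (minus strand) and NPC2 at chr14:74493513-74493762 (minus strand). The share of these motifs over the cholesterol list is not given, since 22 of its 28 members had a promoter in the reference, which is under 80%.
FDPS: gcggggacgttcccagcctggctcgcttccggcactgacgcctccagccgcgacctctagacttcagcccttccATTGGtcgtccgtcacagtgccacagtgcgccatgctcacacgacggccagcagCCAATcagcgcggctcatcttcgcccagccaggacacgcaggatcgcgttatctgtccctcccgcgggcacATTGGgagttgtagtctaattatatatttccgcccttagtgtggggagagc
MVK: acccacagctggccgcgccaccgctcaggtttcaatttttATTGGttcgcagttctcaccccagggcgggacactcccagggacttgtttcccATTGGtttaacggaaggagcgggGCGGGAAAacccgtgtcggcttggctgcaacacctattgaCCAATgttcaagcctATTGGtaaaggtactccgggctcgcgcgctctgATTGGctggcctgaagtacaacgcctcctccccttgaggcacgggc
MVD: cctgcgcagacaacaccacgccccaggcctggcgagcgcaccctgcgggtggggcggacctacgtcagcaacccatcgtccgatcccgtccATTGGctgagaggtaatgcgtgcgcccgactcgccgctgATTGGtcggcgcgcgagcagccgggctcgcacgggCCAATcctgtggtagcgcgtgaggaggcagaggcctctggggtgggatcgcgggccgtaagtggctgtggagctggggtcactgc
NPC2: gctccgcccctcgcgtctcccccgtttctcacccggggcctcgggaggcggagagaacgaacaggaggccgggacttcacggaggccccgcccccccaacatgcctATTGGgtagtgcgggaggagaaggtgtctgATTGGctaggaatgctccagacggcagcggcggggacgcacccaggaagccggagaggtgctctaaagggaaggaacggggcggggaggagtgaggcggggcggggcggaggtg

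Fatty acid genes moved in the same sense as the sterol enzymes, with less force. Of 28 members, 17 were higher and 4 lower in Hep-G2 against 4 and 11 in BE(2)-C, with medians of 0.43 and -0.16. With equal sums the Hep-G2 median was 0.26, and the median difference went from 0.44 to 0.26. The desaturases FADS1 and FADS2, which make polyunsaturated fatty acids and are neighbours on chromosome 11, both moved oppositely. FADS1 had an FPKM of 11.7, 10.9 and 11.1 with siC, then 26.2, 21.6 and 21.5 with siI1 in Hep-G2. FADS1 in BE(2)-C had 19.4, 19.4 and 19.9 with siC, then 13.7, 13.7 and 14 with siI1. FADS1 doubled in the liver line and fell to 0.707 times in the other, a difference of 1.53 (SE 0.10, adjusted p = 1.1e-06). FADS2 differed by 1.46 (SE 0.09, adjusted p = 7.5e-07), and its fall of -0.32 in BE(2)-C (adjusted p = 0.016) was -0.30 (adjusted p = 0.0565) without replicate 3 of siI1. The oxidation enzyme ECI1 had 0.63 and -0.61, a difference of 1.24 (SE 0.13, adjusted p = 2.6e-05), and SCD, ACADS and HADH were opposite in the same sense. ACADVL, the first enzyme of very long chain oxidation, fell in both, by 0.52 and 0.66. CPT1A, the gate of mitochondrial fatty acid import, rose in both, with 0.94 and 0.20.

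The mRNAs of the glucose carriers SLC2A1 and SLC2A3 moved in opposite directions in Hep-G2. SLC2A1 encodes GLUT1, the carrier of most proliferating cells. Its FPKM was 278, 298 and 299.7 with siC, then 33.3, 35.0 and 37.5 with siI1 in Hep-G2. SLC2A1 in BE(2)-C had 35.8, 32.6 and 33.3 with siC, then 46.1, 40.1 and 44.0 with siI1. With siI1, SLC2A1 kept 0.121 of its level in Hep-G2 and was a little higher in BE(2)-C, with -3.05 (SE 0.06, adjusted p = 1.4e-06) and 0.35 (SE 0.06, adjusted p = 0.0077) and a difference of -3.40 (SE 0.09, adjusted p = 1.9e-09). SLC2A3, the neuronal carrier GLUT3, rose there. The FPKM of SLC2A3 was 56.0, 58.9 and 56.3 with siC, then 157, 157 and 162 with siI1 in Hep-G2. For BE(2)-C it was 3.22, 2.74 and 3.05 with siC, then 2.49, 1.87 and 1.94 with siI1. SLC2A3 rose 2.78 times in Hep-G2, by 1.48 (SE 0.05, adjusted p = 4.9e-06). In BE(2)-C it had -0.50 (SE 0.13, adjusted p = 0.03), a call lost without replicate 1 or 3 of siC (-0.45 and -0.49) or replicate 2 or 3 of siI1 (-0.43 and -0.46), with adjusted p-values up to 0.0927, while the difference of 1.98 (SE 0.13, adjusted p = 1.3e-06) was called throughout. The hexokinase HK2 and the muscle phosphofructokinase PFKM followed SLC2A1, with -1.77 and -1.05 in Hep-G2, against 0.19 and 0.49 in BE(2)-C. PFKP fell in both, by 1.60 and 0.98, and the pyruvate dehydrogenase kinase PDK1 rose in both, by 0.75 and 0.99. As a group, the 32 members of glycolysis and hypoxia response had no common direction, with 9 lower and 10 higher in Hep-G2, against 7 and 10 in BE(2)-C, and a Hep-G2 median of 0.05 that turned to -0.12 with equal sums.

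Several feedback genes of the RAS and ERK pathway fell in Hep-G2 but rose in BE(2)-C. When ERK is active, it raises the mRNAs of its own inhibitors (the Sprouty, SPRED and dual specificity phosphatase families) and of ETS factors and EGR1, so that these mRNAs are often read as a gauge of the pathway. Of 33 members, 16 were lower with 6 higher in Hep-G2 against 9 and 8 in BE(2)-C, with 7 alike and 7 opposite and medians of -0.25 and -0.10. The median difference of -0.21 was -0.02 after subtraction of the length trend and -0.39 without both libraries that stood apart. SPRY4, an inhibitor upstream of RAF, had an FPKM of 19.7, 21.6 and 21.1 with siC, then 2.03, 1.76 and 1.70 with siI1 in Hep-G2. SPRY4 in BE(2)-C had 21.1, 20.2 and 21.8 with siC, then 30.8, 30.1 and 30.8 with siI1. From similar control levels, SPRY4 fell to 0.0921 times in Hep-G2 and rose in BE(2)-C, with -3.44 (SE 0.09, adjusted p = 2.5e-06) and 0.54 (SE 0.04, adjusted p = 3.8e-04) and a difference of -3.98 (SE 0.09, adjusted p = 1.4e-09). SPRY2, SPRED1, SPRED2 and the ETS factor ETV5 shared this pattern, with -1.50, -1.67, -1.39 and -2.37 in Hep-G2, against 0.47, 0.44, 0.26 and 0.23 in BE(2)-C. The ERK phosphatase DUSP6 had 33.5, 34.2 and 35.4 with siC, then 2.90, 3.08 and 2.91 with siI1 in Hep-G2. In BE(2)-C, DUSP6 was low, with 1.40, 1.57 and 1.57 with siC, then 1.06, 1.16 and 1.31 with siI1. Its fall in Hep-G2 was -3.49 (SE 0.06, adjusted p = 1.4e-06), its value in BE(2)-C -0.34 (SE 0.13, adjusted p = 0.1) and the difference -3.15 (SE 0.12, adjusted p = 2.9e-08).

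EGR1 and ETV4 fell in both lines, yet much more in Hep-G2. The FPKM of EGR1, an immediate early transcription factor, was 9.59, 11.1 and 10.2 with siC, then 0.683, 0.744 and 0.620 with siI1 in Hep-G2. EGR1 in BE(2)-C had 22.2, 18.9 and 17.7 with siC, then 10.3, 9.09 and 7.50 with siI1. The log2 fold changes were -3.73 (SE 0.11, adjusted p = 3.3e-06) and -1.12 (SE 0.13, adjusted p = 0.0014), a difference of -2.61 (SE 0.17, adjusted p = 1.2e-06), and those of ETV4 were -2.45 and -0.31. The receptor EGFR had 12.4, 10.6 and 12.4 with siC, then 7.03, 5.17 and 5.27 with siI1 in Hep-G2. Its values in BE(2)-C were 11.6, 11.6 and 12.3 with siC, then 18.4, 19.4 and 19.2 with siI1. Starting from similar control levels, EGFR was halved in the liver line and rose in the other, a difference of -1.69 (SE 0.15, adjusted p = 8.4e-06). FGFR4, a receptor of bile acid control in liver, went the other way, with 0.33 and -1.12. Within the pathway itself, MAP2K1 and NRAS were lower in both, with -0.79 and -0.82 in Hep-G2, against -0.17 and -0.48 in BE(2)-C.

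**Figure D3:**
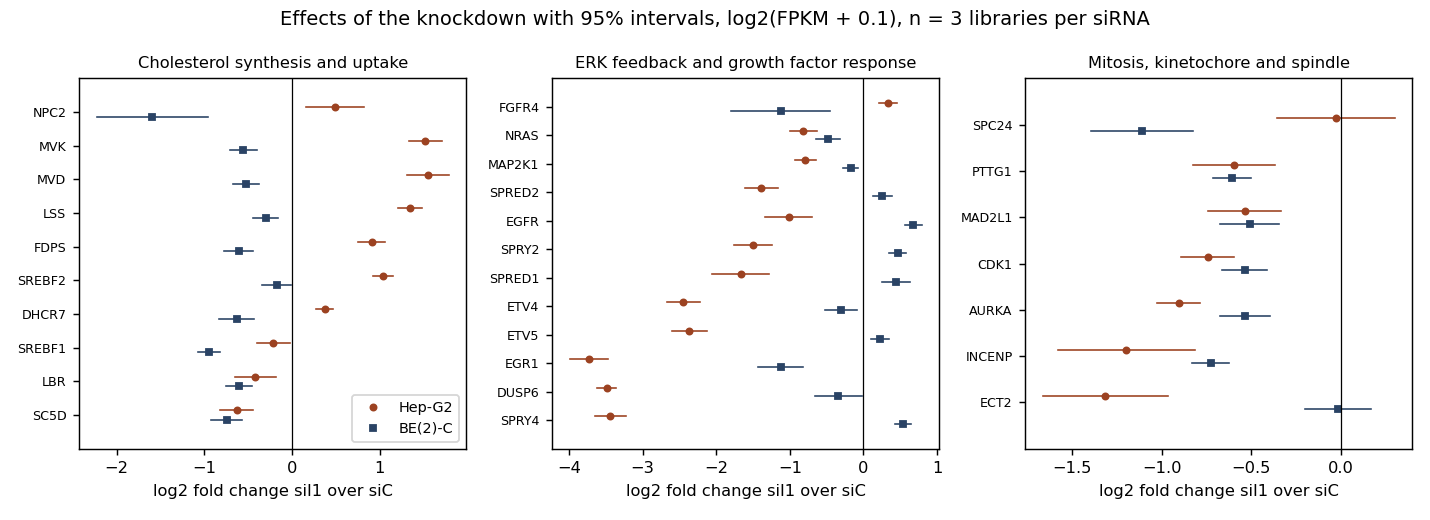
Log2 fold change of siI1 over siC on log2(FPKM + 0.1) (x axis) for the members of 3 gene lists that the text names, in Hep-G2 (circles) and BE(2)-C (squares), with bars for 95% intervals and n = 3 libraries per siRNA. Cholesterol enzymes such as MVK lie to the right in Hep-G2 (1.52) and to the left in BE(2)-C (-0.55), SPRY4 the other way (-3.44 and 0.54), and mitotic genes such as PTTG1 to the left in both (-0.60 and -0.61).

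A few AP-1 factors moved oppositely, although the median of their list was negative in both lines (-0.57 and -0.49). JUND had an FPKM of 60.1, 67.9 and 66.1 with siC, then 148, 182 and 198 with siI1 in Hep-G2. JUND in BE(2)-C had 101, 87.0 and 94.2 with siC, then 53.9, 49.2 and 56.4 with siI1. JUND rose 2.70 times in Hep-G2 and fell below its controls in BE(2)-C, a difference of 2.25 (SE 0.14, adjusted p = 1.0e-06). JUN and ATF3 had 0.95 and 0.75 in Hep-G2, against -0.72 and -0.99 in BE(2)-C. By contrast SRF and IER2 fell in both lines, with -1.36 and -0.57 in Hep-G2, against -0.68 and -0.84 in BE(2)-C. Altogether 7 of 13 members were lower with 3 higher in Hep-G2, against 7 and 1 in BE(2)-C. The difference was called for 10, 76.9% against 54.8% of all members.

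Mitotic genes were mostly lower in each line. They peak in G2 and M phase, and many are controlled by the DREAM complex and FOXM1 through CHR and CCAAT elements in their promoters. Of 52 members, 31 were lower in Hep-G2, beside 34 in BE(2)-C, 21 in both, and 0 were higher in either. The medians were -0.38 and -0.33. The difference was called for 23 genes, 44.2% against 54.8% of all members, with 13 negative and 10 positive. With equal sums the medians were -0.54 and -0.31, and the median difference of -0.06 was -0.24. PTTG1, the securin that holds sister chromatids together until anaphase, had an FPKM of 13.9, 16.7 and 13.9 with siC, then 8.93, 10.4 and 10.00 with siI1 in Hep-G2. PTTG1 in BE(2)-C had 84.8, 82.3 and 79.0 with siC, then 54.7, 52.2 and 54.5 with siI1. Both lines kept 0.661 and 0.656 of the level, with -0.60 (SE 0.10, adjusted p = 0.0025) and -0.61 (SE 0.04, adjusted p = 2.9e-04) and a difference of 0.01 (SE 0.11, adjusted p = 0.95). INCENP, the scaffold of the chromosomal passenger complex, fell by 1.20 in Hep-G2, beside 0.73 in BE(2)-C. Others moved in 1 line, as the cytokinesis regulator ECT2 had -1.32 (SE 0.15, adjusted p = 4.7e-04) in Hep-G2, beside -0.02 (SE 0.08, adjusted p = 0.9) in BE(2)-C (difference -1.30 (SE 0.18, adjusted p = 1.8e-04)), and the kinetochore subunit SPC24 had -0.03 and -1.11 (difference 1.08 (SE 0.19, adjusted p = 9.7e-04)). For 19 of the 52 genes the interval of the difference lay within 0.5, against 28.8% of all members.

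Promoters of 4 mitotic genes lower in both lines are shown up to the start of transcription, since such genes moved together, with CHR (TTTGAA) and CCAAT letters on either strand in capitals. INCENP is at chr11:62123761-62124010 (plus strand), PTTG1 at chr5:160421605-160421854 (plus strand), CDK1 at chr10:60778081-60778330 (plus strand) and MAD2L1 at chr4:120066849-120067098 (minus strand) of GRCh38.p14, from RefSeq. Over the list, 43 of 52 members had a promoter of 300 bases, of which 30 (69.8%) held CHR and 33 (76.7%) held CCAAT, against 9.04% and 38.3% of all members and 15.2% and 34.6% of all promoters. These shares describe the list whether or not its genes moved. CDK1 and MAD2L1 came to -0.74 and -0.54 in Hep-G2, against -0.54 and -0.51 in BE(2)-C.
INCENP: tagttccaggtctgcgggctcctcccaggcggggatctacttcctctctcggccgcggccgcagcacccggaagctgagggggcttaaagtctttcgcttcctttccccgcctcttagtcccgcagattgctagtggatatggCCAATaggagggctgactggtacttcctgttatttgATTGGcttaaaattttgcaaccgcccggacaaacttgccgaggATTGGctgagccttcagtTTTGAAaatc
PTTG1: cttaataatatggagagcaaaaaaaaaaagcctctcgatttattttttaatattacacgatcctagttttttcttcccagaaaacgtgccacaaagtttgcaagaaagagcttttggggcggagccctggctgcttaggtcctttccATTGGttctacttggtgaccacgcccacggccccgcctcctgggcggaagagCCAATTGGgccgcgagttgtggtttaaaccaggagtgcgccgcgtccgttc
CDK1: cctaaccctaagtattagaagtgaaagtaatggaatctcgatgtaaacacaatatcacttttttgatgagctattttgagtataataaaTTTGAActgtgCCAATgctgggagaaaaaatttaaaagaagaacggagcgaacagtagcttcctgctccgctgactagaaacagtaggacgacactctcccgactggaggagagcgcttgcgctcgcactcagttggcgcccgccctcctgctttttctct
MAD2L1: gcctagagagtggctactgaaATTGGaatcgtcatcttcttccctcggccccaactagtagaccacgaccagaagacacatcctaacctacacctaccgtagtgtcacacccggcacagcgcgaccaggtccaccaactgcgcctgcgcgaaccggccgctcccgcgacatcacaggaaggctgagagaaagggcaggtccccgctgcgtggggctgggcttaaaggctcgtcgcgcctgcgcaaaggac

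Genes of DNA replication were mostly lower in BE(2)-C. Of 53 members, 36 were lower with 1 higher in BE(2)-C, whereas 22 were lower with 10 higher in Hep-G2. The medians were -0.15 in Hep-G2, beside -0.31 in BE(2)-C, or -0.31 and -0.29 with equal sums of FPKM. Lower in both were 18 genes, among them E2F2, E2F1, the ribonucleotide reductase subunit RRM2 and the helicase partner GINS3. E2F2 had -1.05 and -0.91 with a difference of -0.15 (SE 0.22, adjusted p = 0.64). In Hep-G2 it reached a mean of 1 FPKM only with siC (1.495, against 0.680 with siI1), which favours a fall. A set of 8 genes was higher in Hep-G2 but lower in BE(2)-C, namely POLE2, LIG1, RPA3, POLD2, RPA2, PCNA, CDT1 and TYMS. POLE2, a subunit of DNA polymerase epsilon, had 0.63 (SE 0.08, adjusted p = 0.001) in Hep-G2. Its -0.41 in BE(2)-C (adjusted p = 0.043) was lost in 12 of the settings run, between -0.45 and -0.31 with adjusted p up to 0.125, while the difference was 1.04 (SE 0.15, adjusted p = 2.0e-04). Geminin (GMNN), the inhibitor of CDT1, had 19.6, 20.6 and 20.5 with siC, then 34.1, 36.6 and 38.4 with siI1 in Hep-G2. GMNN in BE(2)-C had 27.6, 30.6 and 28.9 with siC, then 27.1, 26.2 and 26.4 with siI1. GMNN rose in Hep-G2 by 0.84 (SE 0.06, adjusted p = 6.7e-05), with -0.13 (SE 0.05, adjusted p = 0.1) in BE(2)-C and a difference of 0.97 (SE 0.08, adjusted p = 3.7e-06). The E2F letters TTTNNCGC were in 25 of the 45 replication promoters found (55.6%), against 11.6% of the members and 6.89% of all promoters.

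G1 cyclins, their kinases and the inhibitors did not move as a group. CDKN1A encodes p21, which p53 induces. The FPKM of CDKN1A was 95.8, 103 and 102 with siC, then 107, 117 and 116 with siI1 in Hep-G2. CDKN1A in BE(2)-C had 5.98, 6.09 and 5.53 with siC, then 0.997, 0.812 and 0.779 with siI1. CDKN1A was abundant and nearly level in Hep-G2, and lost most of its mRNA in BE(2)-C, with 0.17 (SE 0.06, adjusted p = 0.051) and -2.64 (SE 0.12, adjusted p = 8.6e-05) and a difference of 2.81 (SE 0.11, adjusted p = 3.5e-08). CDKN2D, the inhibitor p19, had 0.48 and -0.54, a difference of 1.02 (SE 0.16, adjusted p = 3.8e-04). CCNG1, CCNG2 and the E2F partner TFDP2 were higher in both, CCNG1 by 0.67 and 0.54 and TFDP2 by 0.57 and 0.58. Of the 22 members, 9 were lower with 5 higher in Hep-G2, against 7 and 6 in BE(2)-C.

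The p53 targets and the apoptosis regulators held both patterns. Among 26 p53 targets, 14 were higher and 6 lower in Hep-G2, against 7 each in BE(2)-C, with medians of 0.27 and -0.09. With equal sums the Hep-G2 median was 0.11, and the median difference of 0.21 was 0.02. BTG2, an antiproliferative partner of the deadenylase complex, had an FPKM of 12.8, 14.4 and 12.8 with siC, then 65.0, 64.7 and 66.7 with siI1 in Hep-G2. BTG2 in BE(2)-C had 12.9, 10.6 and 11.3 with siC, then 21.5, 20.7 and 22.5 with siI1. BTG2 rose in both lines, 4.89 and 1.86 times, with 2.29 (SE 0.06, adjusted p = 2.8e-06) and 0.90 (SE 0.08, adjusted p = 5.0e-04) and a difference of 1.39 (SE 0.10, adjusted p = 2.2e-06). SESN1 and TP53INP1 were also higher in both, with 1.26 and 0.42 in Hep-G2, against 0.67 and 1.57 in BE(2)-C. FDXR, DDB2 and TRIAP1 were higher in Hep-G2 but lower in BE(2)-C. The FDXR difference was 1.81 (SE 0.15, adjusted p = 4.7e-06), from 0.96 and -0.84. Of the BCL2 family, the sensitizer BAD had 13.7, 14.9 and 12.2 with siC, then 20.4, 24.5 and 27.5 with siI1 in Hep-G2. BAD in BE(2)-C had 26.1, 22.5 and 24.3 with siC, then 12.8, 11.9 and 13.1 with siI1. Opposite changes of similar size gave a difference of 1.76 (SE 0.15, adjusted p = 6.9e-06). The death effectors BOK and BCL2L11 (BIM) rose in both, with 0.92 and 0.81 in Hep-G2, against 1.71 and 0.93 in BE(2)-C. BBC3 (PUMA) rose in Hep-G2 by 1.38 and had -0.07 in BE(2)-C, a difference of 1.44 (SE 0.19, adjusted p = 1.2e-04). Together 8 of 18 members were lower with 8 higher in Hep-G2, against 3 and 4 in BE(2)-C.

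Ribosomal protein mRNAs were mostly higher in Hep-G2, and fewer were called in BE(2)-C. Of 78 members, 66 were higher and 0 lower in Hep-G2, 33 were higher and 1 lower in BE(2)-C, with 31 shared rises. The medians were 0.51 and 0.15, with 0.33 for the difference, or 0.14 with equal sums of FPKM. Reads of these genes can be shared with their many pseudogenes, so single values are uncertain. RPL3 had 252, 272 and 248 with siC, then 364, 459 and 464 with siI1 in Hep-G2. RPL3 in BE(2)-C had 526, 494 and 499.8 with siC, then 777, 716 and 724 with siI1. The rise was 0.73 and 0.54, and in both lines each siI1 library lay above the controls. RPS19 had a difference of 0.89 (SE 0.15, adjusted p = 7.8e-04) and RPS9 one of 0.75 (SE 0.38, adjusted p = 0.14), which was not called, and RPS15A rose by 0.67 and 0.50.

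Genes that build ribosomes went down in Hep-G2. These nucleolar proteins process and assemble ribosomal RNA and are known targets of MYC. Of 45 members, 33 were lower with 2 higher in Hep-G2, against 6 and 2 in BE(2)-C. The difference was called for 33, 73.3% against 54.8% of all members, and was negative in 31. The Hep-G2 median was -0.44, and that of BE(2)-C was -0.01, or 0.03 after centring and 0.01 with equal sums. DDX21, a nucleolar helicase, had an FPKM of 67.6, 61.4 and 68.2 with siC, then 30.3, 20.6 and 20.5 with siI1 in Hep-G2. DDX21 in BE(2)-C had 54.5, 60.4 and 64.1 with siC, then 49.7, 54.7 and 52.5 with siI1. Levels fell to 0.357 times in Hep-G2, with a difference of -1.30 (SE 0.18, adjusted p = 2.0e-04). NIP7 had -1.11 and 0.02, a difference of -1.13 (SE 0.09, adjusted p = 4.6e-06). BYSL was lower in both, with -0.75 and -0.44.

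The tRNA synthetases resembled them, as 15 of 20 were lower with 1 higher in Hep-G2, against 6 and 4 in BE(2)-C, with medians of -0.48 and -0.07. YARS fell in both, by 1.03 and 0.63, and so did CARS, by 0.66 and 0.44. RARS was opposite, with -0.56 and 0.34 (difference -0.90 (SE 0.07, adjusted p = 3.7e-06)), and TARS had -0.63 and 0.12 (difference -0.75 (SE 0.09, adjusted p = 8.6e-05)). Translation factors were mixed, with 20 of 47 lower and 12 higher in Hep-G2, against 10 and 14 in BE(2)-C. EIF5B and EIF2S1 fell by 1.06 and 1.12 in Hep-G2 against 0.05 and -0.07 in BE(2)-C, with differences of -1.11 (SE 0.11, adjusted p = 1.8e-05) and -1.05 (SE 0.09, adjusted p = 4.6e-06). MKNK2, the kinase of the cap-binding factor, rose in both, by 1.32 and 0.71, and PABPC1, EEF2 and EIF3 subunits E, H and L did so too. EIF2B2 fell in both, by 0.65 and 0.69, a difference of 0.05 (SE 0.09, adjusted p = 0.72).

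Amino acid response genes under ATF4 differed more often than most, as the difference was called for 21 of 25, 84% against 54.8% of all members. In each line 14 were lower, with 6 higher in Hep-G2, beside 3 in BE(2)-C, and medians of -0.31 and -0.39. The asparagine synthetase ASNS had 16.2, 17.9 and 17.4 with siC, then 7.17, 8.15 and 8.08 with siI1 in Hep-G2. ASNS in BE(2)-C had 24.9, 25.4 and 23.7 with siC, then 17.4, 15.6 and 15.5 with siI1. ASNS fell in both, with -1.13 (SE 0.07, adjusted p = 5.0e-05) and -0.61 (SE 0.06, adjusted p = 7.1e-04). The transporters SLC1A5 and SLC3A2 fell in both as well. SLC38A2 fell in Hep-G2 by 1.65 and had -0.11 in BE(2)-C (difference -1.54 (SE 0.16, adjusted p = 2.3e-05)). ATF3, DDIT3, TRIB3 and PHGDH were higher in Hep-G2 but lower in BE(2)-C, ATF3 with 0.75 (SE 0.10, adjusted p = 0.0013) and -0.99 (SE 0.09, adjusted p = 4.6e-04) and a difference of 1.75 (SE 0.12, adjusted p = 1.8e-06). STC2 was the 1 gene of the reverse kind, with -0.84 and 0.42.

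More chaperone and secretory pathway genes were called lower in Hep-G2 than in BE(2)-C. Of 35 chaperones of the endoplasmic reticulum, 23 were lower with 1 higher in Hep-G2, against 11 and 3 in BE(2)-C, with medians of -0.35 and -0.07. Among them 8 were lower in both. The interval of the difference lay within 0.5 for 18 of the 35, 51.4% against 28.8% of all members. P4HB, the disulfide isomerase, had 307, 327 and 314 with siC, then 125, 152 and 153 with siI1 in Hep-G2. P4HB in BE(2)-C had 141, 124 and 125 with siC, then 86.9, 83.2 and 78.9 with siI1. P4HB fell in both, by 1.15 and 0.65, and SDF2L1 by 0.61 and 0.87, together with HSPA5, XBP1 and CALR. DNAJB9 had -1.23 in Hep-G2, beside 0.13 in BE(2)-C, a difference of -1.36 (SE 0.17, adjusted p = 8.3e-05). CCAAT letters were in 25 of 33 of these promoters (75.8%), against 38.3% of the members and 34.6% of all promoters. Of 42 cytosolic chaperones, 25 were lower with 9 higher in Hep-G2, against 11 and 3 in BE(2)-C, among them PTGES3 with -1.01 and -0.50 and DNAJB1 with -0.66 and -0.43, while HSPA13 fell by 1.25 in Hep-G2 against 0.03 in BE(2)-C and DNAJB5 rose by 1.28 against -0.03. Coat proteins and Golgi transport had 27 of 41 lower in Hep-G2, beside 7 in BE(2)-C. ARCN1, a coatomer subunit, fell by 0.98 in Hep-G2 and had 0.01 in BE(2)-C (difference -0.99 (SE 0.10, adjusted p = 1.5e-05)), and the tether GOLGA4 had -0.95 and 0.15 (difference -1.09 (SE 0.16, adjusted p = 3.2e-04)). YKT6 and SEC13 fell in both, by 0.66 and 0.57 in Hep-G2, against 0.52 and 0.45 in BE(2)-C.

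Proteasome genes often had similar effects. Of 40 members, 21 were lower with 1 higher in Hep-G2, against 23 and 1 in BE(2)-C, with 13 lower in both, 0 opposite and medians of -0.29 and -0.26. The interval of the difference lay within 0.5 for 24 of the 40, 60% against 28.8% of all members. The difference was called for 14, 35% against 54.8% of all members, and was negative in 10. Its median of -0.04 was -0.22 with equal sums. PSMD3, of the regulatory particle, had an FPKM of 40.8, 43.8 and 40.6 with siC, then 27.6, 32.1 and 31.3 with siI1 in Hep-G2. PSMD3 in BE(2)-C had 91.6, 82.8 and 81.5 with siC, then 61.7, 59.9 and 60.2 with siI1. The fold changes of -0.46 (SE 0.07, adjusted p = 0.0021) and -0.49 (SE 0.05, adjusted p = 0.0011) differed by 0.03 (SE 0.09). PSMD12 and PSME3 fell in Hep-G2 by 0.64 and 0.70 and had 0.10 and -0.04 in BE(2)-C, with differences of -0.74 (SE 0.13, adjusted p = 8.3e-04) and -0.66 (SE 0.07, adjusted p = 2.0e-05).

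Mitochondrial genes were often lower in BE(2)-C. Of 75 subunits of the respiratory chain and ATP synthase, 36 were lower with 0 higher in BE(2)-C, whereas Hep-G2 had 9 lower and 19 higher. The BE(2)-C median was -0.20, and that of Hep-G2, 0.17, was 0.01 with equal sums of FPKM. Of 75 mitochondrial ribosomal proteins, 35 were lower with 2 higher in BE(2)-C and 13 and 15 in Hep-G2, where the median of 0.04 turned to -0.13 with equal sums. Among the former, 10 were higher in Hep-G2 but lower in BE(2)-C, such as SDHB and NDUFS8, with 0.48 and 0.58 in Hep-G2, against -0.22 and -0.28 in BE(2)-C. COX4I1, of the terminal oxidase, had 59.3, 69.2 and 62.2 with siC, then 32.7, 39.8 and 40.1 with siI1 in Hep-G2. COX4I1 in BE(2)-C had 143, 143 and 126 with siC, then 79.8, 76.7 and 75.6 with siI1. It fell alike, with -0.76 (SE 0.10, adjusted p = 9.5e-04) and -0.83 (SE 0.06, adjusted p = 2.7e-04) and a difference of 0.06 (SE 0.12, adjusted p = 0.71). MRPL53 rose by 1.79 in Hep-G2 and had -0.19 in BE(2)-C (difference 1.98 (SE 0.27, adjusted p = 1.7e-04)). Without the libraries that stood apart, the Hep-G2 medians were 0.25 for respiratory chain subunits and 0.13 for mitochondrial ribosomal proteins. After subtraction of the length trend they were 0.09 and -0.09, and the median differences of 0.31 and 0.24 were 0.25 and 0.11, or 0.12 and 0.05 with equal sums and 0.44 and 0.36 without both libraries.

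Antioxidant genes were more often higher in Hep-G2, 12 of 33 with 8 lower, than in BE(2)-C, 2 with 8 lower, and the Hep-G2 median of 0.14 turned to -0.03 with equal sums. GPX1, a glutathione peroxidase, had 70.2, 77.8 and 65.8 with siC, then 125, 167 and 174 with siI1 in Hep-G2. GPX1 in BE(2)-C had 135, 124 and 122 with siC, then 101, 95.1 and 93.7 with siI1. GPX1 doubled in the liver line and fell in the other, a difference of 1.51 (SE 0.15, adjusted p = 2.3e-05). TXNRD1, the thioredoxin reductase, fell in both but much more in Hep-G2, by 2.04 against 0.54 (difference -1.50 (SE 0.11, adjusted p = 1.9e-06)), and catalase (CAT) rose in both, by 1.06 and 0.52.

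Proteins of mRNA fate, the class to which IGF2BP1 belongs, had shares lower in Hep-G2 on both sides of that of all members. Of 42 hnRNPs and stability proteins, 19 (45.2%) were lower with 3 higher there, against 35.1% lower among all members, and 11 and 9 in BE(2)-C, with 8 lower in both and 0 opposite. Their median of -0.15 in Hep-G2 was -0.05 with the length trend subtracted, as over all members. HNRNPF had 126, 124 and 128 with siC, then 59.2, 51.6 and 53.7 with siI1 in Hep-G2. HNRNPF in BE(2)-C had 82.3, 84.0 and 80.5 with siC, then 48.3, 51.0 and 46.7 with siI1. HNRNPF fell in both by -1.20 (SE 0.06, adjusted p = 2.3e-05) and -0.76 (SE 0.05, adjusted p = 1.7e-04). SYNCRIP and LARP4 fell in Hep-G2 by 0.89 and 1.22 against -0.08 and 0.07 in BE(2)-C, with differences of -0.80 (SE 0.08, adjusted p = 2.9e-05) and -1.29 (SE 0.18, adjusted p = 2.0e-04). Of 55 genes of mRNA decay and microRNA silencing, 17 (30.9%) were lower with 11 higher in Hep-G2, against 7 and 12 in BE(2)-C, and the Hep-G2 median of -0.12 became 0 without the length trend. LIN28B, which blocks the maturation of let-7 microRNAs, had an FPKM of 15.3, 14.1 and 15.8 with siC, then 7.06, 5.15 and 5.22 with siI1 in Hep-G2. LIN28B in BE(2)-C had 11.3, 14.1 and 13.8 with siC, then 13.9, 15.6 and 13.6 with siI1. It was more than halved in Hep-G2 and overlapped with the controls in BE(2)-C, a difference of -1.52 (SE 0.17, adjusted p = 4.9e-05). Of 16 genes that write, erase or read methylated adenosine in RNA, 9 (56.2%) were lower with 2 higher in Hep-G2, against 3 and 2 in BE(2)-C, and the median difference of -0.38 was -0.14 without the length trend. The demethylase FTO fell in both by 0.98 and 0.79. Of 49 spliceosome genes, 21 (42.9%) were lower with 2 higher in Hep-G2, against 10 and 7 in BE(2)-C, with 3 alike and 3 opposite. The difference was called for 23 (46.9%, against 54.8% of all members), and its interval lay within 0.5 for 23 (46.9%, against 28.8%).

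Cell adhesion and matrix genes were sorted into nearly equal parts. Of 24 integrins, cadherins and tetraspanins, 8 moved alike and 8 oppositely, 33.3% each, against 16.2% and 8.75% of all members. Apart from CD9, ITGA6 fell in both, by 1.28 and 1.17. ITGA1, a collagen receptor, had 3.15, 2.75 and 2.93 with siC, then 1.64, 1.39 and 1.28 with siI1 in Hep-G2. ITGA1 in BE(2)-C had 2.23, 2.30 and 2.41 with siC, then 3.51, 3.43 and 3.70 with siI1. The Hep-G2 level was halved and the BE(2)-C level rose, with a difference of -1.58 (SE 0.15, adjusted p = 1.1e-05). ITGB5, ITGAV and ITGB1, which pair to receptors of vitronectin and fibronectin, had the same pattern with -0.65, -0.78 and -0.66 in Hep-G2, against 0.73, 0.51 and 0.42 in BE(2)-C. The tetraspanin TSPAN33 had the reverse, 1.42 and -0.72, a difference of 2.14 (SE 0.16, adjusted p = 2.2e-06). Of 29 matrix genes, 10 were lower with 14 higher in Hep-G2, against 9 and 7 in BE(2)-C. VCAN, a large proteoglycan, had an FPKM of 15.0, 13.9 and 15.2 with siC, then 3.41, 2.45 and 2.53 with siI1 in Hep-G2. VCAN in BE(2)-C had 3.86, 3.36 and 3.65 with siC, then 5.92, 6.77 and 6.41 with siI1. As with FN1, the Hep-G2 level dropped, here to 0.194 times, and the BE(2)-C level rose, a difference of -3.16 (SE 0.16, adjusted p = 2.3e-07). LAMA5, COL9A3 and SULF2 were higher in Hep-G2 but lower in BE(2)-C.

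The cytoskeleton moved alike about as often as other members. Alike and opposite shares were 22.9% and 8.57% for actin genes and 16.2% and 5.41% for tubulins and kinesins. Of 35 actin and SRF target genes, 16 were lower in each line, with 8 higher in Hep-G2, beside 3 in BE(2)-C. MYH9, the heavy chain of nonmuscle myosin, had 104, 103 and 107 with siC, then 57.4, 52.9 and 54.8 with siI1 in Hep-G2. MYH9 in BE(2)-C had 43.1, 37.7 and 40.1 with siC, then 20.1, 18.8 and 18.4 with siI1. MYH9 was halved in both, with -0.93 (SE 0.05, adjusted p = 2.7e-05) and -1.07 (SE 0.06, adjusted p = 1.6e-04) and a difference of 0.14 (SE 0.08, adjusted p = 0.18). FHL2 fell by 1.09 in Hep-G2 and had 0.27 in BE(2)-C, a difference of -1.37 (SE 0.17, adjusted p = 8.9e-05). Among 37 tubulins and kinesins, 15 were lower with 5 higher in Hep-G2, against 13 and 3 in BE(2)-C.

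Signals of development gave the largest difference of a named gene. WNT11, a ligand of noncanonical Wnt signalling, had an FPKM of 1.13, 0.947 and 1.27 with siC, then 9.98, 10.7 and 11.6 with siI1 in Hep-G2. WNT11 in BE(2)-C had 2.06, 1.85 and 2.08 with siC, then 1.21, 0.825 and 0.930 with siI1. Its mean in BE(2)-C reached 1 FPKM only with siC, which favours a fall there. WNT11 rose 8.98 times in Hep-G2 and was halved in BE(2)-C, with 3.17 (SE 0.12, adjusted p = 8.8e-06) and -0.96 (SE 0.16, adjusted p = 0.0056) and a difference of 4.13 (SE 0.20, adjusted p = 1.7e-07), on as few as 28 reads in a library. LGR5, a receptor of R-spondins, had the reverse, with -0.90 (SE 0.12, adjusted p = 9.3e-04) and 0.71 (SE 0.05, adjusted p = 3.2e-04) and a difference of -1.61 (SE 0.14, adjusted p = 6.1e-06), together with FZD6, APC and GSK3B. Of 26 Wnt genes, 6 (23.1%) moved alike and 7 (26.9%) oppositely. In the Notch list, 4 of 13 moved alike and 3, HES6, HEY1 and APH1A, oppositely. Of 23 genes of TGF-beta, BMP and activin signalling, 5 were higher in both, SMAD7, SMAD5, SKIL, FSTL3 and LTBP3, the last with 0.60 (adjusted p = 0.0514) in BE(2)-C without replicate 2 of siI1.

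Chromatin regulators and transcription factors were divided by family. Of 36 SWI/SNF and Polycomb genes, 3 moved alike and 6 oppositely, and the 6 opposite ones, BMI1, RNF2, PCGF5, PHC3, JARID2 and SMARCC1, were all lower in Hep-G2 but higher in BE(2)-C. With the length trend subtracted, the Hep-G2 median of this list went from -0.17 to -0.01. Its median difference went from -0.09 to 0. For PHC3, with -0.54 and 0.64, the Hep-G2 call was lost with the length trend subtracted (-0.30, adjusted p = 0.0862) and without replicate 1, 2 or 3 of siC (-0.48, -0.58 and -0.55) or replicate 2 or 3 of siI1 (-0.41 and -0.48), and the BE(2)-C call without replicate 2 of siC (0.58) or replicate 1 or 2 of siI1 (0.60 and 0.62). For PCGF5, with -0.61 and 0.57, the BE(2)-C call was lost without replicate 1, 2 or 3 of siC (0.47, 0.61 and 0.64) or replicate 2 or 3 of siI1 (0.54 and 0.47). SMARCD2, a SWI/SNF subunit, had 35.1, 37.9 and 35.4 with siC, then 13.8, 16.5 and 16.9 with siI1 in Hep-G2. SMARCD2 in BE(2)-C had 62.0, 58.7 and 58.1 with siC, then 28.0, 28.9 and 27.9 with siI1. SMARCD2 was halved in both, with -1.20 (SE 0.09, adjusted p = 7.3e-05) and -1.07 (SE 0.04, adjusted p = 6.5e-05) and a difference of -0.12 (SE 0.10, adjusted p = 0.35). Of 224 zinc finger genes, 66 were higher and 14 lower in BE(2)-C, with a median of 0.20 there, against 38 and 35 in Hep-G2. Few line-specific factors were members, namely 5 of 43 genes of the hepatocyte list and 6 of 29 of the neuroblastoma list. All 5 of the hepatocyte list and all 6 of the neuroblastoma list had a called difference, against 54.8% of all members. SOX4 had an FPKM of 27.8, 27.4 and 30.6 with siC, then 13.2, 12.1 and 12.1 with siI1 in Hep-G2. SOX4 in BE(2)-C had 30.2, 31.9 and 32.1 with siC, then 45.3, 43.4 and 45.5 with siI1. SOX4 fell in the liver line and rose in the neuroblastoma line, a difference of -1.70 (SE 0.08, adjusted p = 9.5e-08). ONECUT2 had the same pattern, with -1.56 and 0.55 (difference -2.1 (SE 0.19, adjusted p = 9.6e-06)), and its rise in BE(2)-C was 0.52 (adjusted p = 0.0554) without replicate 2 of siI1.

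**Figure D4:**
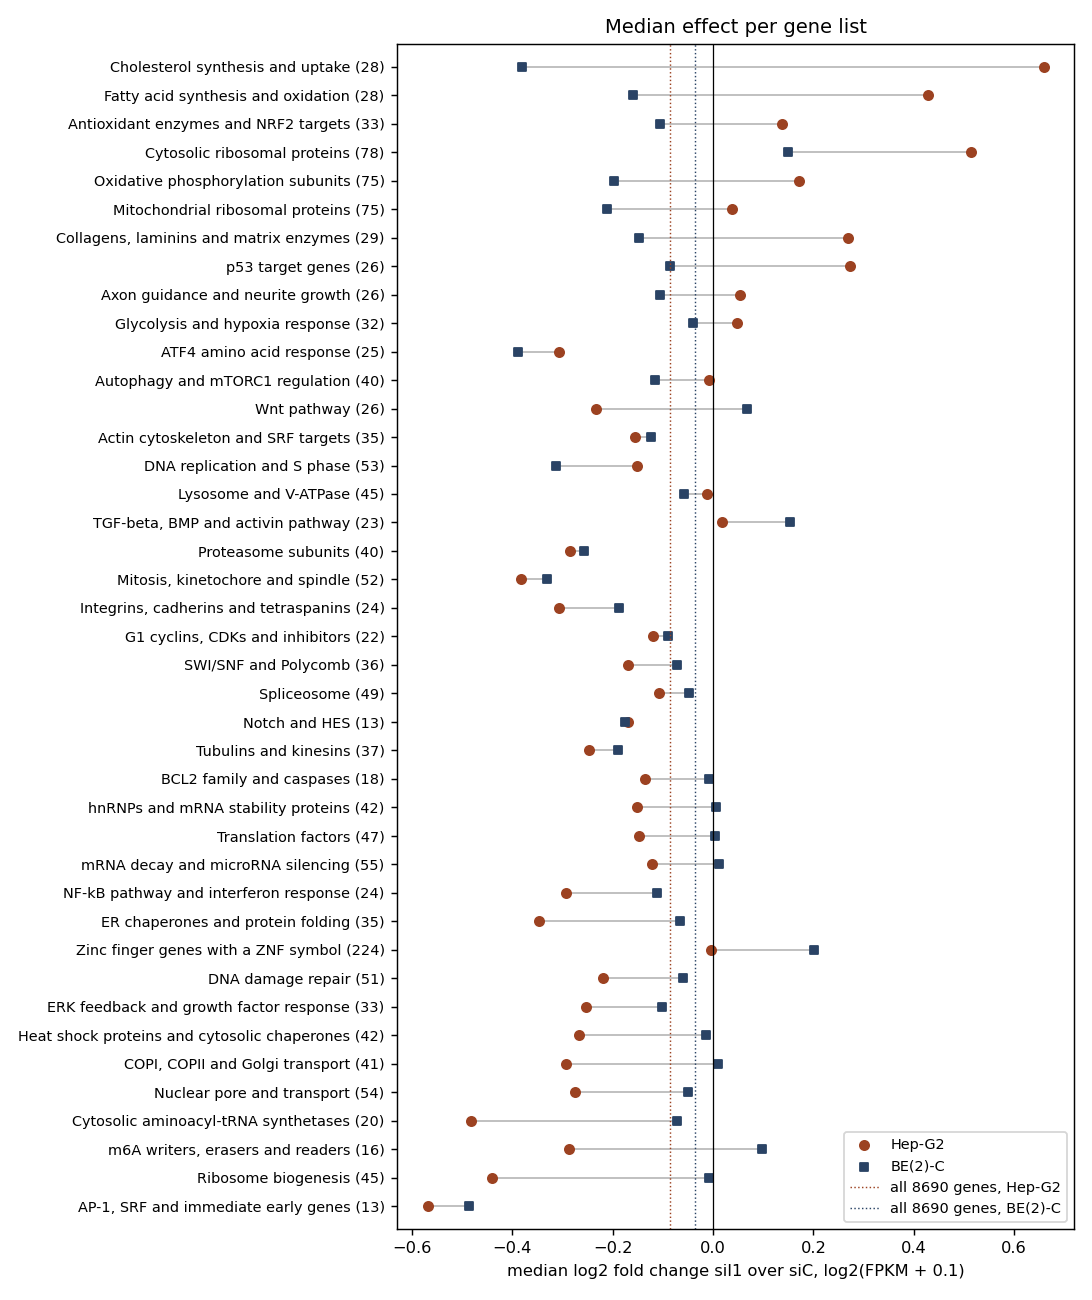
Median log2 fold change of siI1 over siC on log2(FPKM + 0.1) (x axis) of each gene list with at least 10 members in Hep-G2 (circles) and BE(2)-C (squares), ordered by the median difference, with dotted lines for all 8690 genes. Cholesterol synthesis and uptake lies farthest apart (0.66 and -0.38), whereas proteasome subunits (-0.29 and -0.26) and mitotic genes (-0.38 and -0.33) lie together on the deposited scale; medians near 0 in Hep-G2 change sign with the scaling.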

How the data were processed

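The values are the FPKM deposited by the authors, 1 table per cell line with 1 column per library. Per the submitters' processing notes, reads were trimmed with cutadapt 1.14, aligned to hg38 with HISAT2 2.1.0, handled with SAMtools 1.5, counted with featureCounts 1.5.3 and normalized with edgeR 3.30.3. Columns of fold change, p-value and FDR made by the authors were not used. FPKM times gene length, divided by the step found for each library, gave near-whole reads, from which depth was taken. With 5 reads in a library, single values of the weakest genes are imprecise. Genes reaching an FPKM of 0.1 in 3 or more of the 6 libraries of a line were fitted on log2(FPKM + 0.1) with limma 3.58.1 (trend) in R 4.3.3, each line alone and, for the difference, all 12 libraries in 1 fit with 4 group means. The p-values were adjusted after Benjamini and Hochberg over all genes fitted. With 3 against 3 libraries an exact permutation test cannot give a p-value under 0.1. Figures were drawn with Matplotlib 3.10.9. The code was tested on simulated data. Members and gene lists were chosen with earlier results of these data known. Named genes are IGF2BP1, the 7 genes per class with the largest smaller effect and separated libraries, 3 per line and direction of 1-line changes, up to 4 per list (2 by difference, 2 by smaller effect within a class), and 4 genes the study followed. Some genes this rule names are not reported. Alternatives covered pseudocount, filters, scaling, block, left-out libraries, limma-voom and thresholds.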

Additional observations from a re-analysis of the deposited data

Results flagged for a closer look

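A test of the difference between the lines was passed by 4766 members, which is why they are listed here. Of the genes named by the rule with a called difference of at least 2 (log2), the effect in Hep-G2 exceeded that in BE(2)-C for WNT11 (4.13), NRTN (3.28), CDKN1A (2.81), CD14 (2.59), ADRA2C (2.55), KHK (2.45), HTR3B (2.41), LITAF (2.32), JUND (2.25), TSPAN33 (2.14), HES6 (2.1), NPC2 (2.08) and MVK (2.08). It was below that in BE(2)-C for ONECUT2 (-2.1), ELK3 (-2.18), AKR1C1 (-2.21), NT5E (-2.45), EGR1 (-2.61), FN1 (-2.93), DUSP6 (-3.15), VCAN (-3.16), SLC51B (-3.29), NGFR (-3.33), MBOAT4 (-3.34), SLC2A1 (-3.40) and SPRY4 (-3.98). Genes named after their values were seen also passed, as SULF2 (2.25), MVD (2.08), SPRED1 (-2.11), ETV4 (-2.14) and ETV5 (-2.59). These differences may come from the line, the siRNA concentration or the medium, which the design does not separate. Gene length and library scaling moved counts of calls, as given with the counts. Of the 760 opposite members, 589 kept their class with the length trend subtracted and 625 with equal sums of FPKM. No gene passed between opposite and alike, but this would take called effects of both signs in the same line.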

How the results depend on the processing

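Of the effects of 187 named genes in 25 settings, 11048 values kept their side of the threshold, 236 lost the call, 122 gained one and 1 reversed. A change of sign counted as reversed only where the effect was called in either setting. Uncalled effects among the 11048 may thus have changed sign. The reversal was ARRDC4, whose difference was -0.58 with a pseudocount of 1, and its cause was not tested. The class lower in Hep-G2 but higher in BE(2)-C held 533 genes when only members were fitted, 550 with limma-voom on recovered reads and 189 without the mean-variance trend, where the reverse class held 259; the cause was not tested. At a threshold of 0.01 the classes held 490, 196, 161 and 89 genes, and with at least 0.5 (log2) in both lines 306, 137, 97 and 63, as stricter rules leave fewer. An absolute difference of at least 1 left 921 (474 negative, 447 positive). With a mean FPKM of at least 5 there were 2802 called differences (1406 negative), and classes of 622, 271 and 182 genes for lower in both, higher in both and lower in Hep-G2 with higher in BE(2)-C. With equal sums of FPKM, 3633 differences were negative and 1455 positive, and the classes held 1160, 372, 316 and 469.

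Leaving out 1 library at a time gave 4156 to 5465 called differences (2323 to 2985 negative, 1792 to 2480 positive), 4123 to 5952 calls in Hep-G2 (2415 to 3432 lower, 1681 to 2520 higher) and 2304 to 3041 in BE(2)-C (1473 to 1869 lower, 831 to 1172 higher). The classes ranged from 691 to 939, 333 to 481, 284 to 575 and 184 to 458, and members with a bounded difference from 2185 to 2525. Fewer libraries were fitted in each. With replicate number as a block, as if paired, there were 4906 called differences and classes of 899, 446, 430 and 311. Whether replicate numbers pair the libraries is not settled by these values. Equal numbers correlated with 0.44, 0.43 and -0.16 in Hep-G2, against 0.23, 0 and 0.04 in BE(2)-C, and not every library correlated best with its own number. Depth limits the weakest genes, and a change of gene length with the siRNA in single libraries was not separable from biology.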

Other observations

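Several further groups are described by counts and genes, beside which 35.1% of all members were lower and 24.5% higher in Hep-G2, against 24.1% and 15.7% in BE(2)-C. Nuclear pore and transport genes were lower in Hep-G2 for 30 of 54 members (55.6%) with 4 higher, against 13 and 5 in BE(2)-C, and KPNA6, an importin, fell in both, by 0.54 and 0.49. After subtraction of the length trend, the Hep-G2 median of this list went from -0.28 to -0.13. Its median difference went from -0.26 to -0.13. Of 51 DNA repair genes, 21 (41.2%) were lower with 10 (19.6%) higher in Hep-G2, against 14 (27.5%) and 6 (11.8%) in BE(2)-C. Of 24 genes of NF-kB and interferon response, 10 (41.7%) were lower with 4 higher in Hep-G2, against 7 and 1 in BE(2)-C. NFKB2 fell in both, by 0.89 and 0.85.

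Lysosome and V-ATPase genes were evenly split, with 15 of 45 lower and 15 higher in Hep-G2, against 14 and 8 in BE(2)-C. The proton pump subunits ATP6V1D and ATP6V1A fell in both, by 1.55 and 0.86 in Hep-G2, against 0.92 and 0.74 in BE(2)-C, and the sialidase NEU1 rose in Hep-G2 by 1.06 against -0.32. Of 40 autophagy and mTORC1 genes, 7 (17.5%) moved alike and 0 oppositely, against 16.2% and 8.75% of all members. LAMTOR5, of the lysosomal Ragulator complex, fell in both, by 1.53 and 1.23. Of 6 14-3-3 genes, 4 were lower in Hep-G2, against 1, YWHAZ, in BE(2)-C, and YWHAG had -0.69 and -0.06 (difference -0.63 (SE 0.08, adjusted p = 9.5e-05)).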
